A study of Homo sapiens with 2 samples.

Results

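The genes described here encode plasminogen activators, invasion proteases and their inhibitors. They were chosen by name, as a list of 9 protein-coding genes out of 19866, and are SERPINE2, PLAU, PLAUR, PLAT, MMP2, MMP14, MMP1, TIMP1 and TIMP3. The series maps lactylation of lysine 18 of histone H3 (H3K18la) by chromatin immunoprecipitation and sequencing (ChIP-seq) in H1299, an established line of human non-small cell lung cancer that lacks p53. It holds 1 library made with an antibody to H3K18la and 1 library of input DNA, both from H1299 chromatin. Their titles name no treatment and do not say that the cells were untreated. The deposited list of broad peaks of the antibody library was used, and there were no replicates. Counts and values are therefore descriptions of 1 library, with no test and no replicate error. With unknown depth, a missing peak means only that this list holds none, not that the mark was absent. A peak list measures no expression, so the cell line was taken from the labels and was not checked against marker genes.

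Plasminogen is a circulating zymogen that the urokinase (PLAU) and tissue-type (PLAT) activators cleave to plasmin, a broad serine protease that digests fibrin and matrix proteins. The receptor PLAUR holds urokinase at the cell surface, where plasmin forms and where tumour cells meet the matrix. SERPINE2 (protease nexin-1) is a serpin that traps thrombin, urokinase and plasmin. Matrix metalloproteinases are zinc enzymes made as inactive precursors. MMP14 is anchored in the membrane and activates the precursor of the gelatinase MMP2 there, whereas MMP1 is the interstitial collagenase. TIMP1 and TIMP3 inhibit metalloproteinases, TIMP3 while bound to the matrix. Histone lactylation is derived from lactate, and this mark has been associated with active promoters and enhancers.

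A peak was counted at a gene end where it shared at least 1 bp with the 1000 bp on either side of that end. A peak that overlapped the gene but neither end window was counted as inside, and a peak outside the gene but within 50000 bp of it as flanking. By these rules 47 peaks belonged to the 9 genes, of which 6 lay at an end, 2 inside and 39 in the flanks. The value of each peak is the deposited fold enrichment, an average over the peak of the antibody library relative to the local background of the peak caller. Each gene's values stand in relation to all 19866 protein-coding genes measured in the same way.

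Promoter sequences were matched by symbol in a RefSeq table (GRCh38.p14) for 6 of the 9 genes, with 8 annotated start sites in all. They are shown because the peaks of these genes lie on or beside them, and TIMP3 is included as a promoter without a peak. Each sequence is the 250 bases before a start site, 5′ to 3′ on the strand of the gene. Capitals mark matches on either strand to GGGCGG (an SP1 motif), to CCAAT (the box of that name) or to TGANTCA (an AP-1 motif), none of which overlapped another. The windows are chr10:73910882-73911131 (plus strand) for the start of PLAU of higher coordinate, chr19:43670170-43670419 (minus strand) for PLAUR, chr2:224038641-224038890 (minus strand) for the outer of the SERPINE2 starts, chr14:22836335-22836584 (plus strand) for MMP14, chrX:47582186-47582435 (plus strand) for TIMP1 and chr22:32801455-32801704 (plus strand) for TIMP3.
PLAU: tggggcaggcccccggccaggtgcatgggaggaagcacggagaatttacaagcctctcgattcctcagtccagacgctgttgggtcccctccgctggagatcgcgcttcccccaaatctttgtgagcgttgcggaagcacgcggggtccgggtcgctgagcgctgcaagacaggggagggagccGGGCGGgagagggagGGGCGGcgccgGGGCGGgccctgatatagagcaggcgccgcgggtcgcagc
PLAUR: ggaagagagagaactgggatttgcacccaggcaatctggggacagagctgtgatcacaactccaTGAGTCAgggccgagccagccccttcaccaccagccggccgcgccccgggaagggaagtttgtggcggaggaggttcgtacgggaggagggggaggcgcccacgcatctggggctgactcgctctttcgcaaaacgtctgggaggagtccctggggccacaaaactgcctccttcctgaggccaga
SERPINE2: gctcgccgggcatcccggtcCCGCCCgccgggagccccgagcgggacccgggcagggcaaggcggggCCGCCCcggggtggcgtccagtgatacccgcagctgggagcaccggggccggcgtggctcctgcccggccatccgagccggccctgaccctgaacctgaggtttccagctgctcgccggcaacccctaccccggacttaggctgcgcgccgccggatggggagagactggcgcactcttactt
MMP14: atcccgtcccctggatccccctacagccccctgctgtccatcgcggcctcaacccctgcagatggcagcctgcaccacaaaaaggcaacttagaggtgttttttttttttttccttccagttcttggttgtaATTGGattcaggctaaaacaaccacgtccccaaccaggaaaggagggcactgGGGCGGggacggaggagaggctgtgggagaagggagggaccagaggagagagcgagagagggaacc
TIMP1: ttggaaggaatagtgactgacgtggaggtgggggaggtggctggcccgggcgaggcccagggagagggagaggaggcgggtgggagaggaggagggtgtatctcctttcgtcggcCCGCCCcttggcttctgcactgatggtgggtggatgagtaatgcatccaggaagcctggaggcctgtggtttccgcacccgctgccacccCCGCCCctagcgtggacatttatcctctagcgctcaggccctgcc
TIMP3: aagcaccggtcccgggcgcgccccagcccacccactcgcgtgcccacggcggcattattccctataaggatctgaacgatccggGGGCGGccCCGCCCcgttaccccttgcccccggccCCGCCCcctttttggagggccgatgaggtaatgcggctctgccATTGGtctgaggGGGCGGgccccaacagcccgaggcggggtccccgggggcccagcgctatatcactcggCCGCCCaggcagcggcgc

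The peaks covered 5 of the 8 windows whole, namely both of PLAU and those of PLAUR, MMP14 and TIMP1. At SERPINE2 the peak covered 34 of the 250 bases of the outer window, the bases farthest from the start, and none of the inner window (chr2:224031479-224031728). The TIMP3 window had no peak. The SP1 letters were found in 6 of the 8 windows, with 5 matches at TIMP3, 3 at the higher start of PLAU, 2 each at the outer start of SERPINE2 and at TIMP1, and 1 each at MMP14 and the inner start of SERPINE2. Of all 35116 promoters in the table, 42.6% held them. The AP-1 letters stood in PLAUR alone, as TGAGTCA at 186 to 180 bases before the start, and in 6.57% of all promoters. The CCAAT letters were in 4 windows and in 32% of all promoters. The inner window of SERPINE2 held 7 of them, spaced along an imperfect repeat, without a peak. Neither an ETS motif (CCGGAA, in 14.5% of all promoters), a TATA box (TATAAA, 10.7%) nor the NF-kB motif searched (0.179%) was found in any of the 8 windows. A match to these letters is a description of the sequence and does not show that a factor binds there.

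Base composition and the fold of the peak were not in the same order among these genes. The MMP14 window, under the peak of highest fold at an end, had 56.8% G and C and 7 CpG dinucleotides, beside medians of 58% and 11 over all promoters. The TIMP3 window, without a peak, had 72.4% and 26. The windows of PLAUR and TIMP1 held 63.2% and 64.8% with 13 and 12 CpG. The higher start of PLAU held 68.8% with 24, and the lower start, under the same peak, 46.8% with 4. The outer start of SERPINE2 had the richest composition of the set, 75.2% with 28 CpG, beside the end peak of lowest fold. The inner start of SERPINE2, without a peak, held 53.2% with 6.

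At an end, 6 of the 9 genes had a peak (66.7%), where 59.1% of all protein-coding genes had one. The 6 values were 10.5-fold at MMP14, 9.77-fold at PLAU, 6.89-fold at PLAUR, 5.13-fold at PLAT, 4.80-fold at TIMP1 and 3.66-fold at SERPINE2. Their median of 6.01 lay near the median of 5.66 over all genes with such a peak (quartiles 4.42 and 7.19). MMP14 and PLAU stood above 95.1% and 92.8% of those genes and PLAUR above 70.9%. PLAT, TIMP1 and SERPINE2 stood above 40.1%, 33% and 10.2%. A peak of at least 10-fold at an end was held by 1 of the 9 genes, MMP14, and by 3.74% of all genes. None of the 9 had a peak at both ends, which 5.96% of all genes had. For the 5 of these genes whose strand the promoter table gives (PLAU, PLAUR, MMP14, TIMP1 and SERPINE2), the end with the peak was the 5′ end.

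**Figure D1:**
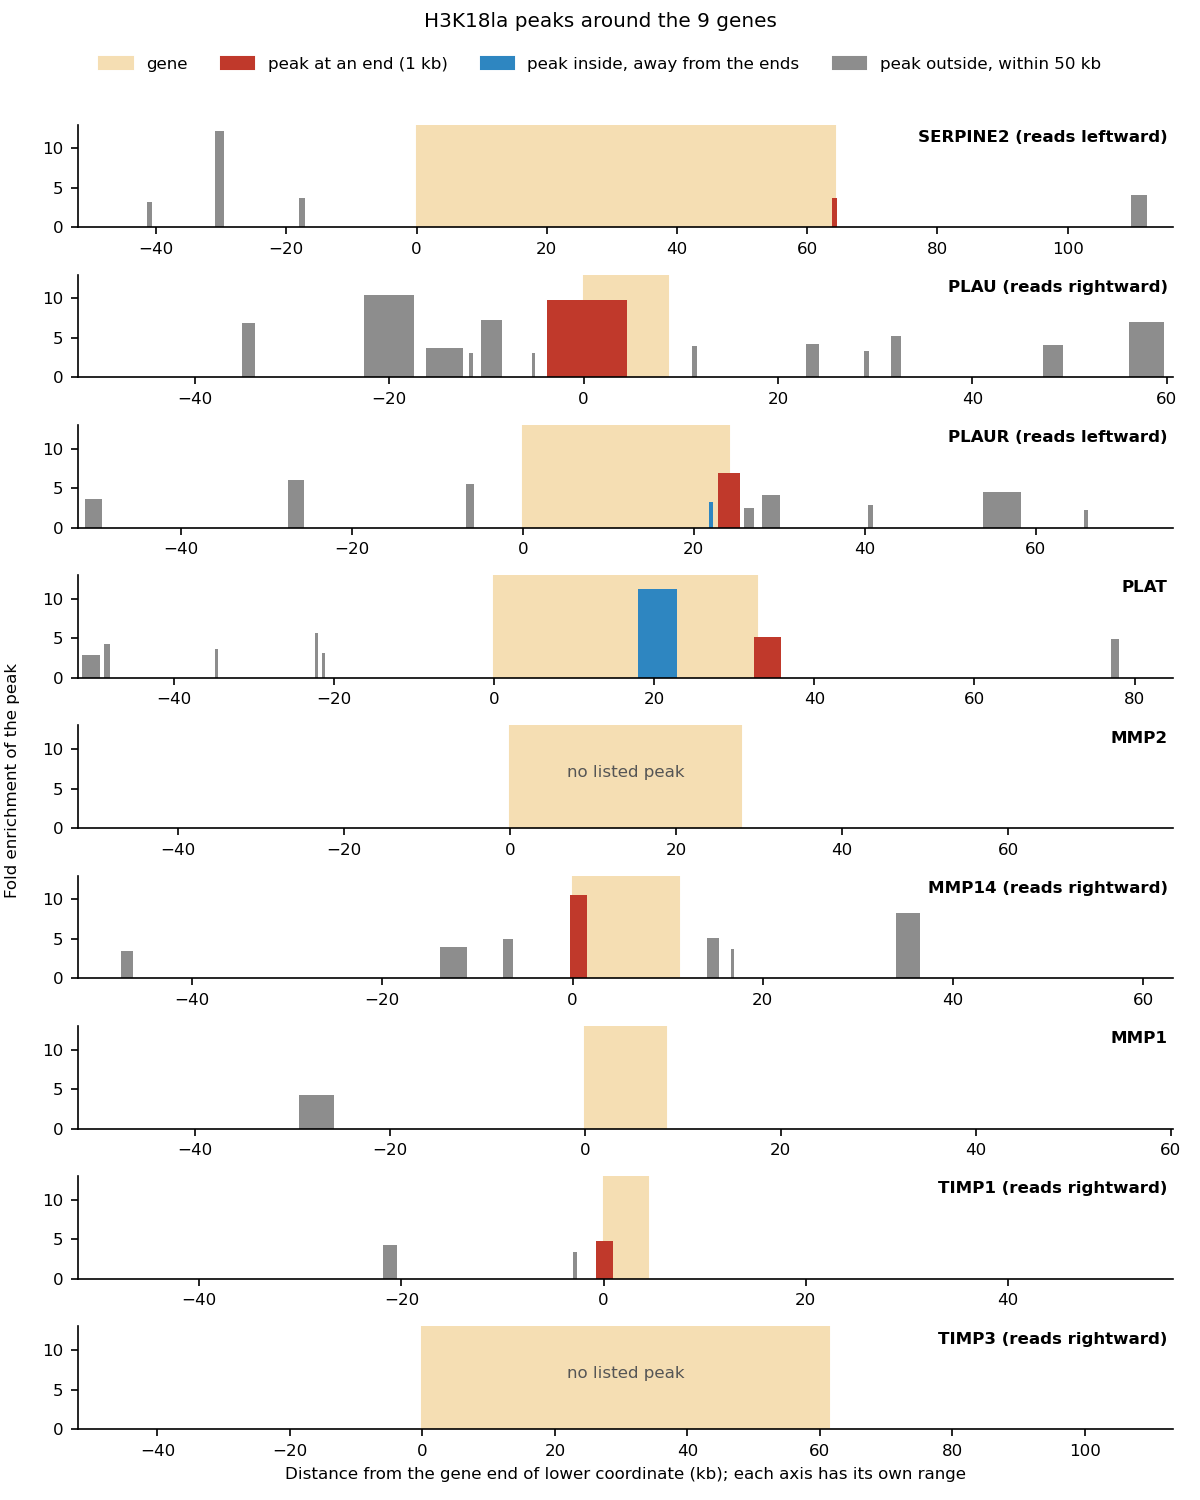
Fold enrichment (vertical axis) and position (horizontal axis, kb from the gene end of lower coordinate) of every peak over the 9 genes and the 50 kb on either side, with the gene shaded. Bars are drawn to the width of the peak; PLAU has 13 peaks, MMP1 has 1 flanking peak, and MMP2 and TIMP3 have none.

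Inside the gene and away from its ends, PLAUR and PLAT had 1 peak each, so that 2 of the 9 genes had such a peak, where 24.8% of all genes did. Flanking peaks were found for 7 of the 9, where 70.3% of all genes had them. MMP2 and TIMP3 had no peak at all in the gene or within 50000 bp, as did 16.9% of all genes. Of the 39 flanking peaks, 9 lay at the end of another protein-coding gene, 5 inside another such gene and 25 in none. Since the genes were chosen with these peaks known, none of these counts is evidence about the group.

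PLAU (NCBI gene 5328, chr10:73908832-73917494), the urokinase gene, had the most peaks and the most covered sequence of the 9. Its end peak was 8188 bp wide (chr10:73905093-73913280, 9.77-fold, -log10 q of 33.4), wider than 99.4% of the 28695 peaks in the list, whose median width was 1250 bp. It reached 6039 bp upstream and 2148 bp downstream of the higher annotated start, ran across both starts and covered 51.4% of the gene, ending 4214 bp before the 3′ end. Part of it lies over C10orf55, a long noncoding gene that overlaps PLAU.

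Upstream of PLAU, the end peak was the last of a run of 6 peaks that began at 73886277 and spanned 27004 bp, of which 74% was under peaks. The longest break in that run was 3092 bp. Its first peak (chr10:73886277-73891380, 5104 bp) had 10.4-fold, higher than the peak on the gene itself, and lay over a predicted noncoding gene and in no protein-coding gene. The peak at 73898267 to 73900442 had 7.25-fold, and the others of the run had 3.72-fold, 3.10-fold and 3.05-fold. Below this run the next peak (6.93-fold) lay at the end of CAMK2G, the gamma subunit gene of a calcium- and calmodulin-dependent kinase. On the other side of PLAU, 6 peaks followed within 50000 bp, from 3.31-fold to 7.06-fold, none of them in a protein-coding gene. In all, 29497 bp of the 108663 bp examined were under peaks (27.2%), more than for 99.8% of protein-coding genes, whose median was 2.26%.

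PLAUR (NCBI gene 5329, chr19:43646095-43670169), the urokinase receptor gene, had a peak of 2521 bp on its start site (chr19:43668948-43671468, 6.89-fold). It lay across the start, reached 1221 bp downstream of it and held the AP-1 letters shown above. Its -log10 q of 43.6 was the highest of the 47 peaks although its fold was not. A narrow peak of 419 bp and 3.19-fold lay inside the gene, 1834 bp from the same end. Upstream of the start, peaks of 2.47-fold and 4.18-fold began 1797 bp and 3909 bp from the gene and lay in an overlapping noncoding gene. Farther on were peaks of 2.83-fold, 4.52-fold (4505 bp wide) and 2.24-fold. On the 3′ side, peaks lay inside the adhesion gene CADM4 (5.55-fold) and at the ends of ZNF428 (5.98-fold) and of IRGQ and ZNF576 (3.63-fold). The length under peaks was 12.5% of the stretch examined, above 95.5% of genes.

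The local background of the peak caller was raised where PLAUR lies, though which library it was estimated from is not given in the sources used here. It was solved for each peak from the fold and the p-value, with the Poisson formula that MACS2 uses and in its scaled units. It is approximate, because the deposited fold is an average over the peak. It ranged from 7.19 to 12.2 behind the 10 peaks of PLAUR and from 1.73 to 5.04 behind the 37 peaks of the other genes. The median over the 5 Mb bin of PLAUR (40 to 45 Mb of chromosome 19) was 10.6, above 99.6% of 485 bins with at least 20 peaks, and the median over all peaks was 3.83. At a given fold a higher background yields a smaller p-value, and the PLAUR peaks of lowest fold, 2.24 and 2.47, had backgrounds of 7.19 and 10.1. Its part in the number of peaks and the covered length at PLAUR was not tested. The bins of the other 8 genes had medians from 2.53 (TIMP1) to 3.73 (PLAU).

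SERPINE2 (NCBI gene 5270, chr2:223975045-224039286), the protease nexin-1 gene, had the weakest end peak of the 6. It was 742 bp wide with 3.66-fold and a -log10 q of 4.06 (chr2:224038857-224039598). The peak covered the 5′ end of the gene as placed above. It did not reach the outer start site that has a promoter sequence, which lies inside the gene. It began 217 bp upstream of that start and ended 958 bp upstream, and it also covered the end of lower coordinate of a predicted noncoding gene next to SERPINE2. No other peak lay in the 64242 bp of the gene, so that 0.669% of its length was under peaks. Of the 47 peaks the highest fold, 12.2, lay in the flank of SERPINE2, 29622 bp from the gene, but at the end of WDFY1 (chr2:223944110-223945423). Another flanking peak, of 3.64-fold, lay inside the mitochondrial ribosomal gene MRPL44.

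**Figure D2:**
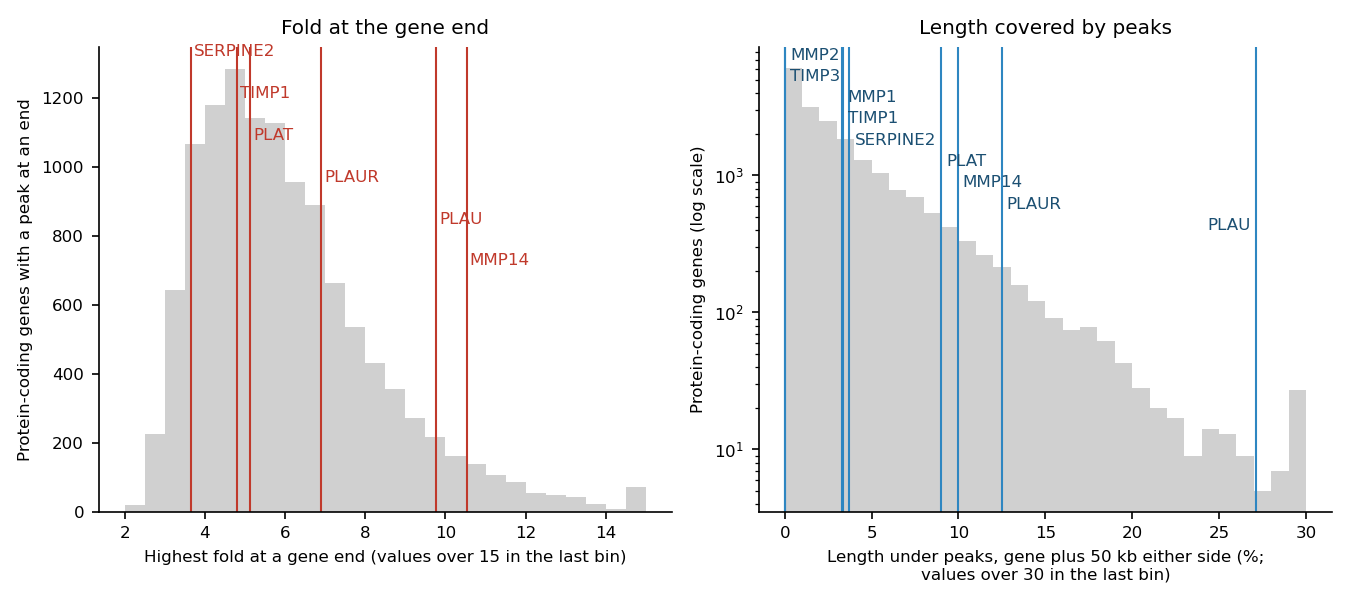
Left, the highest fold at a gene end for all protein-coding genes with a peak there, with lines for 6 of the genes described. Right, the percentage of each gene and its 50 kb flanks under peaks (vertical axis on a log scale), with PLAU at 27.2% and MMP2 and TIMP3 at 0.

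MMP14 (NCBI gene 4323, chr14:22836585-22847758), which encodes the membrane-anchored activator of MMP2, had the highest end fold of the 9. Its peak of 10.5-fold was 1882 bp wide (chr14:22836274-22838155, -log10 q of 29.5). It lay mainly downstream of the start, reaching 311 bp upstream and 1570 bp downstream, and had less width than the PLAU peak of similar fold. Past the 3′ end were peaks of 5.13-fold and 3.72-fold at 2987 bp and 5491 bp, in no protein-coding gene. The neighbours LRP10, a lipoprotein receptor relative, and MRPL52 had end peaks of 8.31-fold and 4.98-fold. The peaks of MMP14 and its flanks covered 9.95% of the stretch, above 91.9% of genes.

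MMP2 (NCBI gene 4313, chr16:55478830-55506691), the gelatinase that MMP14 activates, had no peak and lay far from any. The nearest peak was 547.3 kb below the gene (2.89-fold) and the nearest above was 917.8 kb away (8.16-fold). The stretch without a peak measured 1.49 Mb and held 8 protein-coding genes whole, MMP2 included, among them LPCAT2, CES1 and GNAO1. Only 2.02% of 19821 protein-coding genes on the chromosomes with peaks were as far from a peak. The 5 Mb bin that holds MMP2 had 59 peaks, so this part of chromosome 16 was not without peaks as a whole.

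MMP1 (NCBI gene 4312, chr11:102789919-102798160), the interstitial collagenase gene, had no peak at an end or inside. It had 1 flanking peak, 3555 bp wide with 4.31-fold (chr11:102760576-102764130), 25789 bp from the gene and on the far side of MMP10. MMP1 lies in a cluster of 9 metalloproteinase genes over 435225 bp, and none of the 9 had a peak at an end. The cluster held 7 peaks, which covered 2.98% of it. Of these, 4 lay inside MMP20, the tooth enamel protease gene, with 7.57-fold, 5.58-fold, 4.55-fold and 2.98-fold. The other 3, including the peak nearest to MMP1, lay between genes. From that peak onward, 231.7 kb with MMP10, MMP1, MMP3, MMP12 and MMP13 had no peak.

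**Figure D3:**
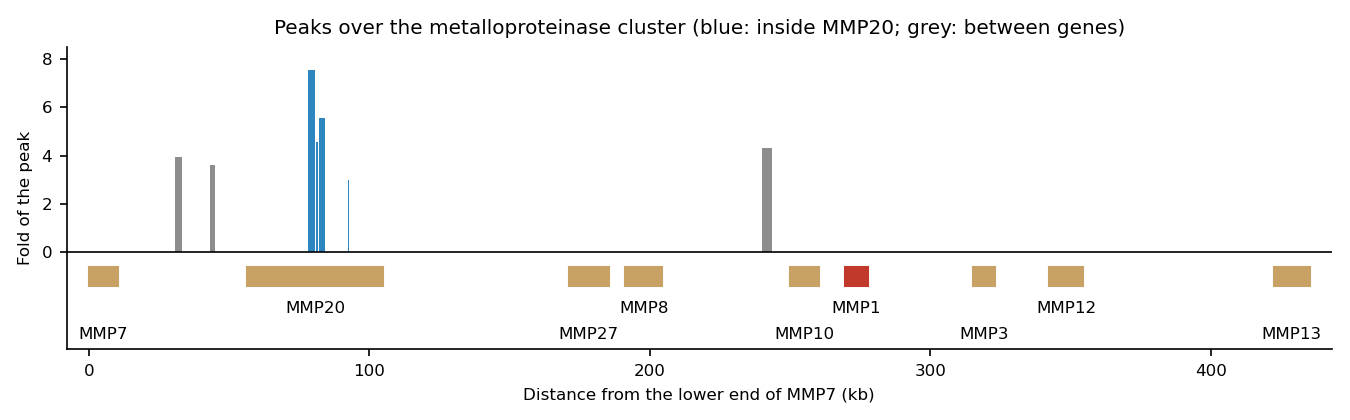
Fold and position (kb from the lower end of MMP7) of the 7 peaks over the metalloproteinase cluster around MMP1, with the genes as boxes below the axis. The peaks lie inside MMP20 (blue) or between genes (grey), and none touches MMP1.

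The inhibitor genes differed. TIMP1 (NCBI gene 7076, chrX:47582436-47586789) had a peak of 1709 bp and 4.80-fold on its start site (chrX:47581681-47583389, -log10 q of 6.59), reaching 755 bp upstream and 953 bp downstream. TIMP1 lies inside the synapsin gene SYN1, which is read from the other strand, and the peak therefore also lies in SYN1. A weak peak of 3.37-fold and 339 bp lay 2669 bp upstream, and a peak of 4.33-fold lay at the end of ARAF, a RAF kinase gene. In all 3.34% of the stretch around TIMP1 was under peaks. TIMP3 (NCBI gene 7078, chr22:32801705-32863041), which lies inside the synapsin gene SYN3, had no peak, and the nearest was 325.8 kb below it. No peak was listed for 2.39 Mb above the gene. The whole stretch without a peak measured 2.78 Mb and held SYN3 whole, with TIMP3 in it. Of 28672 intervals between consecutive peaks, 84 were at least as long. For comparison, 234 were at least as long as the interval at MMP2.

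PLAT (NCBI gene 5327, chr8:42174718-42207565), the tissue-type activator gene, was the only gene of the 9 whose peak of highest fold lay inside the gene and away from its ends. That peak was 4887 bp wide with 11.3-fold (chr8:42192701-42197587, -log10 q of 38.8), 9978 bp from the end of higher coordinate and 17983 bp from the other. By fold it stood above 98.6% of all peaks in the list. The peak at the end of higher coordinate was 3400 bp wide with 5.13-fold (chr8:42207200-42210599) and lay mostly outside the gene, so that it was not counted at the end when its midpoint had to lie in the window. Flanking peaks ranged from 2.95-fold to 5.72-fold, and 2 of them lay at the end of AP3M2, an adaptor complex subunit gene. PLAT and its flanks were 8.99% under peaks, above 89.9% of genes.

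Summed over the 9 genes, 81122 bp of 1142797 bp were under peaks (7.10%), and PLAU contributed the most. The median gene of the 9 had 3.71% and 5 peaks, where the median of all protein-coding genes was 2.26% and 3 peaks. Of the 47 peaks, 4 reached 10-fold, as did 2.93% of all peaks in the list. These were the WDFY1 peak near SERPINE2, the inside peak of PLAT, the end peak of MMP14 and the first peak of the run upstream of PLAU. A -log10 q under 5 was held by 18 of the 47, and by 36.7% of all peaks in the list. The limits of the rule were not closely approached at the gene ends. All 6 end peaks overlapped the end itself, and the nearest peak not counted at an end lay 1797 bp from PLAUR (2.47-fold). At the limit of 50000 bp, peaks 49254 bp from PLAT (2.95-fold) and 49134 bp from PLAUR (3.63-fold) were the last counted, and a peak 58328 bp from TIMP1 (5.53-fold) was the nearest left out.

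The wider families were counted in 8 lists of 114 genes written with the account of the whole series known. Genes of these lists other than the 9 had a peak at an end in 55 of 105 cases (52.4%), beside the 59.1% of all protein-coding genes. Of the plasminogen system, 12 of 19 genes had one (63.2%). The highest after PLAU were ANXA2 (7.61-fold, 10421 bp wide) and LRP1 (6.998-fold). ANXA2 forms with S100A10 (6.83-fold, 7852 bp wide) a surface docking site for plasminogen and tissue-type activator, and LRP1 is the receptor that clears activator-inhibitor complexes. PLG itself, a liver gene, had no peak in the gene or its flanks, and the inhibitor genes SERPINB2, SERPINF2 and SERPINA5 had flanking peaks only.

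Among matrix metalloproteinases, 8 of 23 genes had a peak at an end (34.8%), fewer than the share over all genes. Of these 23 genes, 9 are neighbours in the cluster described above, where none had a peak at an end. All 8 genes with such a peak lay outside that cluster. The lower share therefore rests in large part on that locus and is not a trait shown for the family. After MMP14 the highest was MMP16, another membrane-anchored member (6.91-fold), followed by MMP25 (5.78-fold, in a peak shared with a predicted gene) and MMP24 (5.58-fold, in a peak shared with EIF6 and other genes). MMP9, the other gelatinase, had 3.10-fold. MMP2, MMP3, MMP12, MMP26 and MMP27 had no peak in the gene or its flanks. Of 6 inhibitor genes 3 had a peak at an end (50%), TIMP2 with 8.67-fold, RECK with 5.51-fold and TIMP1. TIMP4 and A2M had flanking peaks only. TIMP2, which takes part in the activation of MMP2 by MMP14, thus had a higher fold than TIMP1.

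Of the ADAM and ADAMTS genes, which encode sheddases and matrix proteases, 7 of 16 had a peak at an end (43.8%). The share over all protein-coding genes was 59.1%. ADAM8 had 12.3-fold, ADAM10 9.33-fold, ADAM17 8.79-fold and ADAM9 6.53-fold in a peak shared with TM2D2, and ADAMTS1, ADAMTS5, ADAMTS9 and ADAM33 had no peak in the gene or its flanks. Cathepsin and cystatin genes, of lysosomal proteases and their inhibitors, had 12 of 16 (75%). They were led by CST3 (10.2-fold), CTSB (8.72-fold), CTSZ (7.78-fold) and CTSD (7.37-fold), with no peak in or near CTSK. Membrane serine proteases and their inhibitors had the lowest count and share, 2 of 12 (16.7%), with FAP at 5.09-fold and DPP4 at 2.75-fold. TMPRSS4, CORIN and TMPRSS15 had no peak, and the hepsin gene HPN had flanking peaks only.

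Proprotein convertases cut the precursors of many secreted and membrane proteins, MMP14 included. FURIN had 10.4-fold over 4774 bp, MBTPS1 9.92-fold and PCSK7 5.40-fold in a peak shared with RNF214, and these were 3 of 8 (37.5%). PCSK1 had no peak in the gene or its flanks. All 14 genes of invadopodia, the protrusions at which MMP14 is exposed to the matrix, had a peak at an end. The share over all protein-coding genes was 59.1%. Values of the 14 genes ran from 3.61-fold at SH3PXD2A, a scaffold of invadopodia, to 10.1-fold at CD44, a hyaluronan receptor. ARPC2, a subunit of the actin-branching complex, had 9.18-fold, ITGB1 8.49-fold over 9280 bp, and the actin-bundling gene FSCN1 8.11-fold over 8514 bp. The widest of these 14 peaks, 23895 bp, was at ITGA3 (7.80-fold). With the midpoint of the peak required to lie in the window the count was 12 of 14, and the share over all protein-coding genes under that rule was 54.8%.

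**Figure D4:**
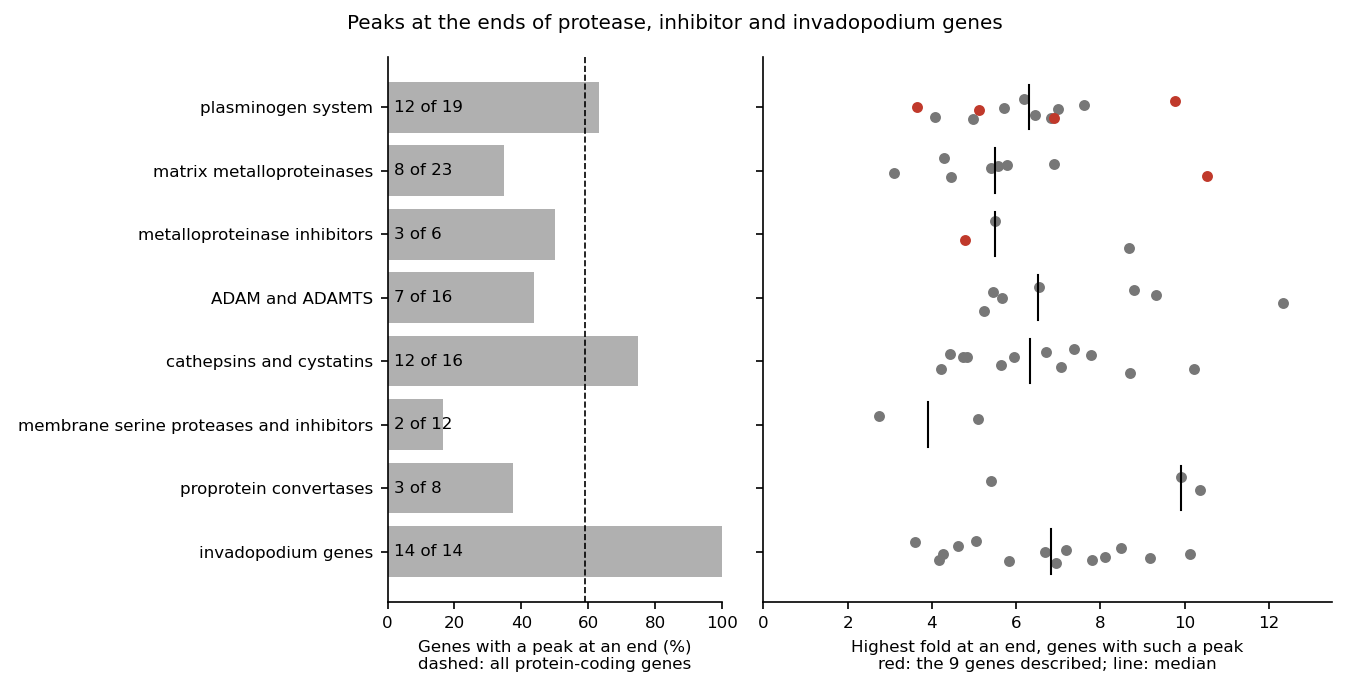
Left, the percentage of genes of each list with a peak at an end, with 59.1% for all protein-coding genes as a dashed line. Right, the highest fold at an end of each gene that has such a peak, with the genes described here in red and the median of each list as a line.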

How the data were processed

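The 9 genes and the wider lists were chosen with earlier results of these data known. Per the submitters' processing notes, reads were aligned with Bowtie2 2.3.4.1 to hg38 and peaks were called with MACS2 (2.1.2 and 2.1.0 are both listed). The caller's settings and the control used are not given in the sources used here, and the series text speaks of IgG where the labels speak of input. The deposited fold enrichment is a ratio to a local background estimated by the caller. Each peak's deposited significance is given as -log10 p and -log10 q, and the largest q was 0.0472. The deposited score was not used. Depth is unknown.

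Peaks were set beside a RefSeq gene table (GRCh38.p14), which has no exons, so exonic, intronic and untranslated positions were not assigned. Of 59792 entries, 58961 placed on chromosomes 1 to 22, X and Y were kept, 19866 of them protein-coding. Strands came from the RefSeq promoter table. Overlaps, motif searches and the solved background were computed in Python 3.11.15 with pandas 2.3.3 and scipy 1.17.1, and tested on simulated data. Percentiles give the share of genes or peaks with a lower value.

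Named were all 9 genes, from each list at most 4 genes with the highest end fold and at most 4 with no peak at an end or inside, genes sharing or holding a peak, and the genes of the cluster around MMP1. S100A10, MMP9, SH3PXD2A, ITGA3 and the genes named within stretches without peaks were chosen after their values were seen. Some genes of the lists are not reported here by name. Windows, flanks and peak thresholds were varied as given in the closing section.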

Additional observations from a re-analysis of the deposited data

How the results depend on the processing

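The count of 6 genes with a peak at an end was 5 or 6, within 1.5 times, under every window, overlap and threshold tried. The share over all protein-coding genes, 59.1% by the main rule, moved as well. It was 57.7% and 62.4% with windows of 500 and 3000 bp and 54.8% under the midpoint rule. It was 40.2% where the peak had to cover at least 50% of the window. Among peaks with -log10 q of 5 or more it was 52.4%, and at or above the median fold 45%. SERPINE2 had no peak at an end among peaks with -log10 q of 5 or more, among peaks at or above the median fold, or where the peak had to cover at least 50% of the window, and PLAT had none under the midpoint rule, so no fold is given for them there. Every other end fold was the same under the settings that gave one. With peaks at or above the median fold only, 1 gene in place of 2 had a peak inside, PLAT. The total length under peaks, 81122 bp, was 54864 bp with flanks of 25000 bp, 121861 bp with flanks of 100000 bp, 63160 bp among peaks with -log10 q of 5 or more and 49776 bp at or above the median fold. Membrane serine proteases and inhibitors had 5 genes in place of 2 with a window of 3000 bp and 1 gene under the midpoint rule and among peaks with -log10 q of 5 or more. The other list counts moved by no more than 1.5 times under the windows of 500 and 3000 bp, the midpoint rule and the stricter q, and were not run under the other settings. No paired analysis was possible because each group holds 1 library. Unknown depth limits every missing peak.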
